A study of Drosophila melanogaster with 2 samples.

Results

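The Hox genes of Drosophila melanogaster were examined for binding of CG17829, a zinc finger protein named Hinfp in the annotation after its vertebrate relative, a transcription factor of histone H4 genes. The members were the 8 Hox genes taken by symbol: lab, pb, Dfd, Scr and Antp of the Antennapedia complex and Ubx, abd-A and Abd-B of the Bithorax complex, out of 13945 protein-coding genes. Binding was measured by ChIP-seq, which sequences the DNA pulled down with a protein, in whole embryos of 0 to 24 h with both sexes pooled. The embryos came from 1 transgenic line making CG17829 with GFP at its C terminus, and the antibody was against GFP. The labels give 1 group of 2 biological replicates of that line, from separate biosamples, and number them 2 and 4. What drives the fusion, and whether the line kept its own CG17829, is not given in the sources used here. Since whole embryos of many stages were pooled, a peak from a few cells and a weak peak from many cells cannot be told apart.

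The Hox proteins are homeodomain transcription factors that give the segments along the head-to-tail axis their identity. The genes lie on chromosome arm 3R in nearly the order of the segments they act in. They are long, with introns and flanking DNA full of enhancers, boundary elements and Polycomb response elements, where Polycomb group proteins keep them silent outside their segments.

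The deposited data were peak lists in the dm6 build, and each peak had a summit, the base of highest signal. The IDR list is named for the irreproducible discovery rate, which rests on how well peak ranks repeat between replicates. It held 7915 peaks, and these were the strongest 7915 of a pooled list of 30000. The list of each replicate also held 30000 peaks. The signal values are the authors' own, on a scale that is not defined, so peaks are given by rank within a list, with rank 1 the strongest. A summit was assigned to a Hox gene when it lay in the gene body or within 10 kb of it, called here the gene's window. The 8 windows covered 498 kb and held 43 of the 7915 IDR summits, 162 pooled summits, 169 summits of replicate 2 and 169 of replicate 4. No summit lay in 2 windows. With 1 group and no second condition, the values are descriptions without a test between groups.

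To show what DNA lay under the peaks, 6 summits are printed here as 101 bp of the plus strand of the RefSeq dm6 sequence. They are the summit nearest upstream of Dfd (chr3R:6791524-6791624), the summit at the lab promoter (chr3R:6678632-6678732), the strongest summit of pb (chr3R:6723947-6724047), that of Antp (chr3R:6914483-6914583), that of abd-A (chr3R:16798827-16798927) and that of Abd-B (chr3R:16958183-16958283). Capitals mark the motifs described at the end of the results. In these letters GAGAG or its reverse CTCTC is the core of the GAGA factor site, GCCAT or ATGGC that of Pleiohomeotic, CAGGTA or TACCTG that of Zelda, and the run GTGTGACCA at Dfd holds the promoter element called motif 1.
Dfd upstream: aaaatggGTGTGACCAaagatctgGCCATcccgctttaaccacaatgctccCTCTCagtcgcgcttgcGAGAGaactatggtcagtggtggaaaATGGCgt
lab promoter: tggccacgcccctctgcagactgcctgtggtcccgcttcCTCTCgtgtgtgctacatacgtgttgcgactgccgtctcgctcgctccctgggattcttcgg
pb intron: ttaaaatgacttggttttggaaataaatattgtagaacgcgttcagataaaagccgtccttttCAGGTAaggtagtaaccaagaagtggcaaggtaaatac
Antp intron: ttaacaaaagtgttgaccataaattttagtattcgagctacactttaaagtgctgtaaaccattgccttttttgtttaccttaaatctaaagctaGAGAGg
abd-A flank: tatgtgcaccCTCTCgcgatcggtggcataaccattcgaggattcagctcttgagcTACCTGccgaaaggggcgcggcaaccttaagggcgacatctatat
Abd-B intron: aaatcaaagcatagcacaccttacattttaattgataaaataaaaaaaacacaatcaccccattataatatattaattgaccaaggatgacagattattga
Of these, the Abd-B summit, the strongest in the Hox windows, held none of the 9 motifs searched, while the weaker Dfd summit held 3 of them.

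Every Hox gene had CG17829 peaks in its window, and the number differed widely between the genes. An IDR summit lay in the window of 8 of 8 genes, against 75.6% of all protein-coding genes. All 8 also had summits in the pooled list (84.6% of all genes), in replicate 2 (84.6%) and in replicate 4 (86%). The IDR counts were 12 at Antp, 7 at Abd-B, 6 each at lab, Ubx and abd-A, 3 at pb, 2 at Dfd and 1 at Scr. The median was 6 per Hox gene and 2 per protein-coding gene.

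Per length, the median of the Hox genes in the IDR list was close to that of all protein-coding genes and above that of long genes. Per 100 kb of window the Hox median was 8.148 IDR summits (2.134 to 16.14) and that of all protein-coding genes 8.497 (quartiles 1.978 and 14.19). The median Hox gene measured 30.6 kb and the median protein-coding gene 2.17 kb. Among the 1977 protein-coding genes of 10 kb or more, a set added after the values were seen, 83.3% had an IDR summit in the window, with a median of 3 summits and 6.28 per 100 kb. The rate was highest at lab, with 16.1 per 100 kb, followed by abd-A with 14, Abd-B with 10.8 and Antp with 9.76. Dfd had 6.54, Ubx 6.13, pb 5.53 and Scr 2.13, so that Ubx, pb and Scr were below the median of the long genes.

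The order of the genes was not the same in the longer lists. In the pooled list lab was again first with 51.1 summits per 100 kb, but Abd-B, behind only lab and abd-A in the IDR list, was last with 15.4. At Abd-B 7 of its 10 pooled summits were in the IDR list, whereas at Ubx 6 of 37 were. The Hox medians per 100 kb were 33.96 in the pooled list, 33.96 in replicate 2 and 30.74 in replicate 4, against 27.93, 28.24 and 27.83 for all protein-coding genes.

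**Figure D1:**
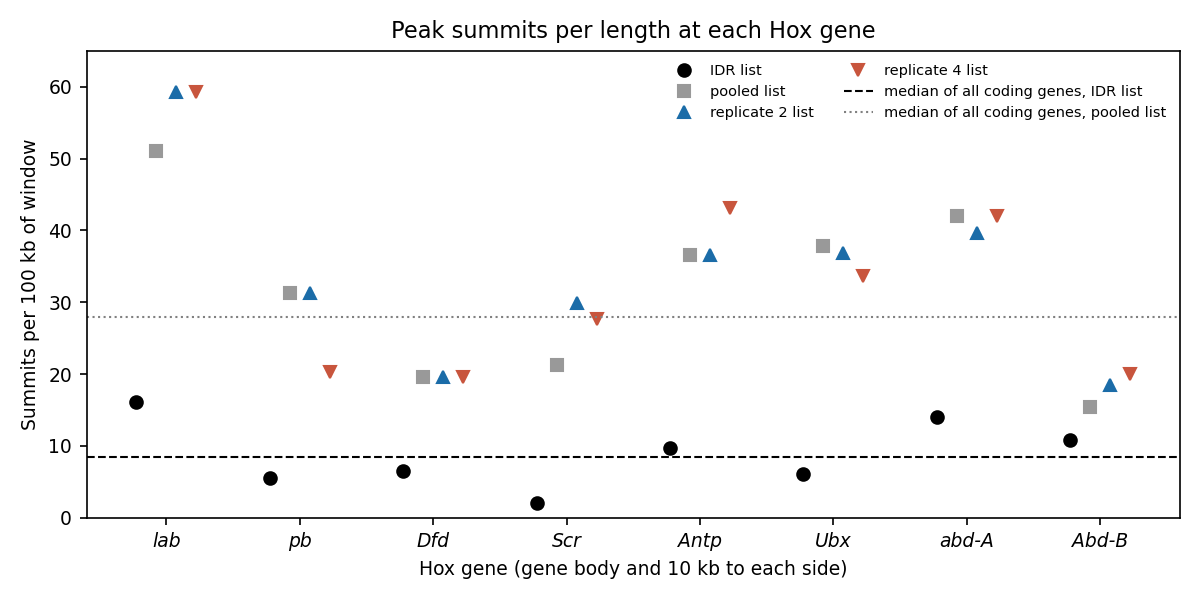
Summits per 100 kb of window (gene body and 10 kb to each side) for each of the 8 Hox genes in the IDR, pooled, replicate 2 and replicate 4 lists. Each point is 1 list, the dashed line is the IDR median of all protein-coding genes (8.497) and the dotted line the pooled median (27.93). The IDR points run from 2.13 at Scr to 16.1 at lab, and lab is above the median of all genes in the IDR and the pooled list, each against its own line.

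Among the genes of the head, lab was bound at its own promoter and in its introns. The gene, which acts in the head and the midgut, lies on the minus strand (FBgn0002522, 3R, 6661427 to 6678590) and had 6 IDR summits, 19 pooled summits and 22 summits in each replicate. The summit at 6678682 lay 92 bp upstream of the distal start of transcription (TSS) and had rank 7145 and signal 151.5. The peak that matched it ranked 8696 in replicate 2 (signal 70.7) and 5115 in replicate 4 (signal 93.81). It is thus among the weaker IDR peaks, and only replicate 4 had it within its first 7915. A second summit, at 6663184 in the 5' UTR, was 270 bp from the proximal TSS (rank 7228). Introns held the summits at 6674746 (rank 3828) and 6667432 (rank 6871). The strongest summit of the window, at 6657624 (rank 3038), lay 182 bp from the TSS of the neighbour CG1307, and that at 6660169 (rank 5479) lay 69 bp from the TSS of the neighbour agt.

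At pb, which acts in the segments of the mouthparts, the peaks were far from the TSS. The gene (FBgn0051481, minus strand, 6707800 to 6742063) had 3 IDR summits, and its window held 17 pooled summits, 17 of replicate 2 and 11 of replicate 4. The strongest, at 6723997 in an intron, ranked 3043 (signal 287.7), with matching peaks at rank 3489 in replicate 2 and 2765 in replicate 4. It was 18066 bp from the pb TSS. The intron summit at 6709058 ranked 6286, and the intergenic summit at 6751852, nearer to zen than to pb, ranked 7069. At the pb TSS itself the pooled list had a summit 140 bp away, at rank 28736, near the end of that list.

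Dfd, which acts in the mandibular and maxillary segments, had no summit in its body in any of the 4 lists. The gene is the shortest of the 8 (FBgn0000439, plus strand, 6791836 to 6802428, 10.6 kb), and its window held 2 IDR summits and 6 summits in each other list. The first summit, at 6791574, was 262 bp upstream of the TSS, just past the 250 bp that counted as a promoter. It ranked 3736 (signal 250.4), with rank 4631 in replicate 2 (signal 119.5) and 3574 in replicate 4 (signal 120.6). Both replicates also had a weaker summit at the TSS, 60 bp away in replicate 2 (rank 24648) and 51 bp away in replicate 4 (rank 15143). The second IDR summit, at 6806877 (rank 4849), lay beyond the 3' end, between Dfd and the microRNA gene mir-10.

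Scr, which acts in the labial and prothoracic segments, had the fewest IDR summits, an order that did not hold in the first 7915 peaks of either replicate. In those of replicate 2 Scr had 4 summits, against 2 each at pb and Dfd, and in those of replicate 4 it had 2, as did Dfd. Its body (FBgn0003339, minus strand, 6823120 to 6849981) held 0 IDR summits, 1 pooled summit and 2 in each replicate. The 1 IDR summit of its window was at 6818732, in intergenic DNA beyond the 3' end, with rank 3342 and signal 270.5. The matching peak ranked 4204 in replicate 2 (signal 129.1) and 2776 in replicate 4 (signal 142.1). Near the main Scr TSS both replicates had a summit at the same base, 196 bp upstream, which ranked 25838 in replicate 2 and 6779 in replicate 4 and 9909 in the pooled list. The replicates placed this summit alike, while its ranks lay far apart. The largest gap among the matched IDR peaks of the Hox windows was 4382 places. This summit was too weak for the IDR list, so that gap is not a like comparison.

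Antp, which acts in the thorax, held 4 of the 5 Hox summits that ranked within the first 1100. That limit was not a planned one, and the next Hox summit ranked 1334. Antp also had 123 of the 498 kb of windows and 12 of the 43 IDR summits. Antp, the gene named for the leg that replaces the antenna in its gain-of-function mutants, is the longest member (FBgn0260642, minus strand, 6896253 to 6999228, 103 kb). It had 12 IDR summits, 10 of them in the body, beside 45 pooled summits, 45 in replicate 2 and 53 in replicate 4. The annotation places CG46458 over much of the same body. The strongest, at 6914533 in an intron, ranked 682 (signal 703.6), 662 in replicate 2 (signal 386.9) and 705 in replicate 4 (signal 318.1). The summit at 6903464 ranked 777 in the IDR list, 763 in replicate 2 and 807 in replicate 4, and lay in an exon of lncRNA:CR43252, a noncoding RNA gene inside Antp.

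The other two of these summits were in introns. The summit at 6936338 ranked 845 (782 in replicate 2, 873 in replicate 4), and that at 6912594 ranked 1081 (1305 and 903). The 4 summits spanned 32.9 kb, and their replicate ranks lay close together. None was at an Antp promoter. The nearest IDR summits to the 3 annotated TSSs were 3498, 8875 and 1723 bp away, and the nearest pooled summits 342, 834 and 1723 bp away. The remaining summits of the body ranked from 2629 to 6017.

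Ubx, which acts in the posterior thorax and the anterior abdomen, was bound at its promoter by a weak peak. The gene (FBgn0003944, minus strand, 16656623 to 16734426, 77.8 kb) had 6 IDR summits, 37 pooled summits, 36 in replicate 2 and 33 in replicate 4. The promoter summit, at 16734391, was 35 bp downstream of the only TSS, with rank 6666 and signal 161.3. It ranked 7410 in replicate 2 (signal 82.37) and 7390 in replicate 4 (signal 70.44). Introns held summits at 16718161 (rank 2803), 16703070 (rank 5477) and 16673405 (rank 6287). The strongest of the window, at 16647146 (rank 2481), was 142 bp from the TSS of the neighbour CG10324, and the last, at 16656089 (rank 5614), lay 427 bp from the TSS of modSP.

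The peaks of abd-A lay mostly outside the gene. The gene, which acts in the anterior and middle abdominal segments (FBgn0000014, minus strand, 16807214 to 16830049), had 6 IDR summits of which 1 was in the body, at 16811924 (rank 2963). The strongest, at 16798877 in intergenic DNA beyond the 3' end, ranked 1334 (signal 480.8). Its matching peak ranked 802 in replicate 2 (signal 350.1) and 3206 in replicate 4 (signal 128.9), so that the replicates differed here more than at the 4 strongest summits of Antp. Next to it the summit at 16801241 (rank 2274) was 58 bp from the TSS of lncRNA:TS16. Upstream of abd-A the summits at 16834836, 16836224 and 16837978 ranked 2621, 7740 and 2455 and lay in introns of lncRNA:iab8, the long noncoding RNA that runs from the Abd-B side towards abd-A. At the distal abd-A TSS the pooled list had a summit 162 bp upstream (rank 9115), and the replicates had one 161 bp away (rank 7354) and 135 bp away (rank 13959).

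Abd-B, which acts in the most posterior abdominal segments and has 6 annotated TSSs, held the strongest summit of all Hox windows. The gene (FBgn0000015, minus strand, 16927212 to 16972236) had 7 IDR summits, 5 of them in introns of Abd-B, beside 10 pooled summits, 12 in replicate 2 and 13 in replicate 4. The summit at 16958233 ranked 678 (signal 706.3), with 810 in replicate 2 (signal 348.8) and 554 in replicate 4 (signal 360.3). Its peak runs from 16958013 to 16958524 and has a second summit, at 16958443 (rank 2390). These lie 2048 and 1838 bp downstream of the TSS at 16960281. The summits at 16970044 (rank 2511), 16941526 (rank 4927) and 16947570 (rank 6396) were at 1470, 2747 and 3297 bp from the nearest Abd-B TSS. The flanks held the summits at 16919230 (rank 2489, in lncRNA:iab8) and 16978097 (rank 5273).

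**Figure D2:**
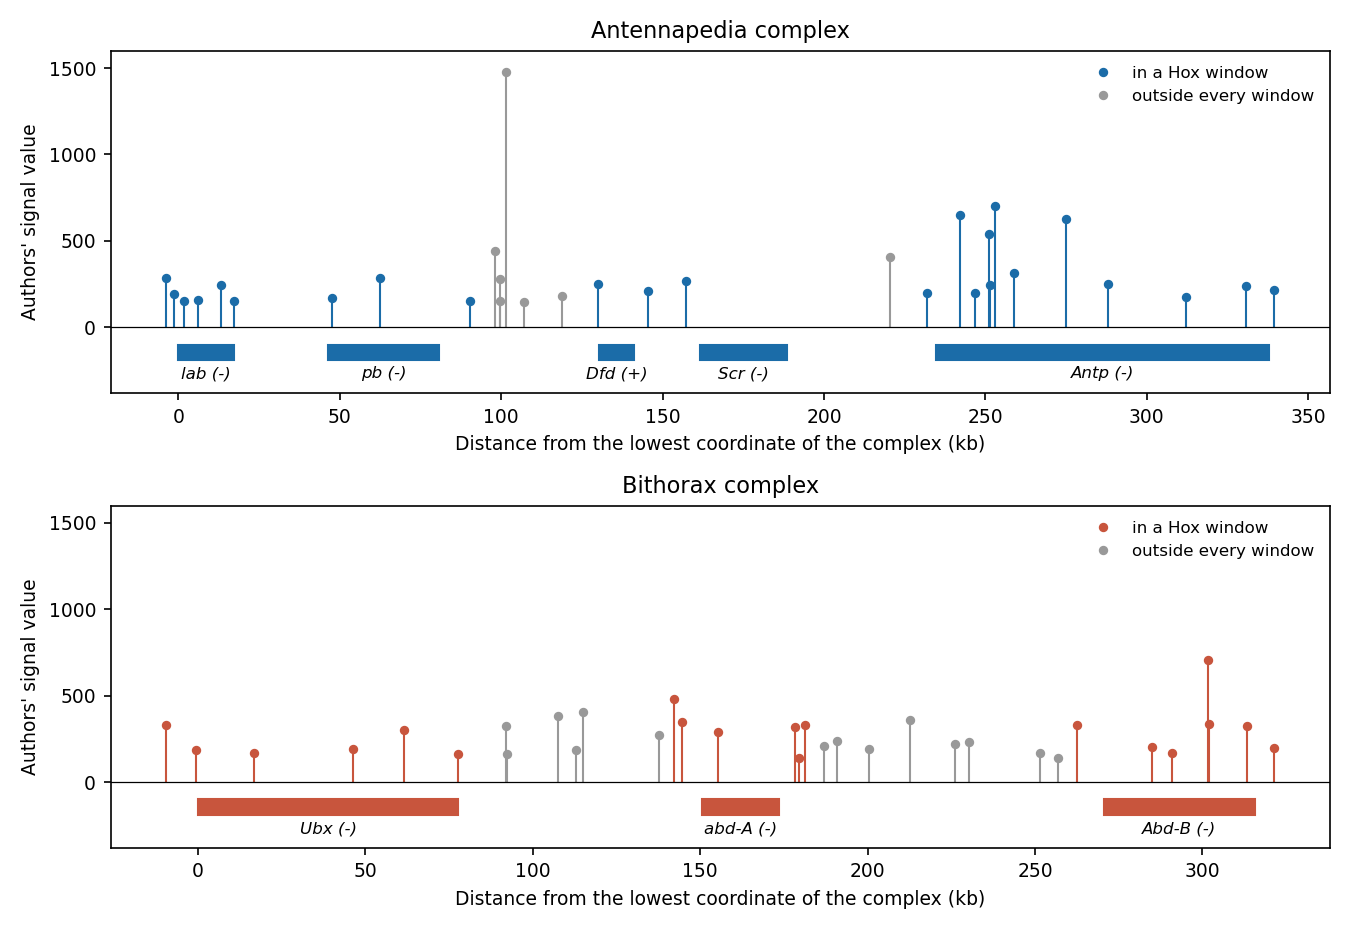
The IDR summits along the Antennapedia complex (upper panel) and the Bithorax complex (lower panel). The x axis is the distance in kb from the lowest coordinate of each complex, the height of each line is the authors' signal value of 1 summit, and bars are the Hox genes with their strand. Grey summits lie outside every Hox window, among them the tallest of the map (1475). The space over Scr and its upstream side has no IDR summit, while Antp carries the tallest coloured summits of the upper panel and Abd-B that of the lower panel.

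The peaks of the Hox genes were more often inside genes than at promoters. In the IDR list 6 of 8 Hox genes had a summit in the gene body, against 16.7% of all protein-coding genes and 51.9% of those of 10 kb or more. A summit within 250 bp of one of their own TSSs was present at 2 of 8, lab and Ubx, against 31.7% of all protein-coding genes and 39.7% of those of 10 kb or more. With 8 genes, 1 gene is a large part of either share. Counted by TSS, 2 of 19 Hox TSSs (10.5%) had such an IDR summit, against 27% of 19607 TSSs of protein-coding genes. In the longer lists the promoters were reached by weaker peaks. Such a summit was present at 5 of 8 in the pooled list (lab, pb, Scr, Ubx and abd-A, background 48.9%), at 7 of 8 in replicate 2 (all but Antp, background 49.3%) and at 6 of 8 in replicate 4 (all but pb and Antp, background 48.5%). Antp was the 1 gene with no promoter summit in any list. By TSS, the shares in the longer lists were not above those of protein-coding genes. In the pooled list 6 of 19 Hox TSSs (31.6%) had such a summit, against 44.5%. In replicate 2 it was 8 of 19 (42.1%, against 45%), and in replicate 4 also 8 of 19 (42.1%, against 44%).

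Of the 43 IDR summits in the Hox windows, 7 (16.3%, exact Clopper-Pearson 95% interval 6.81 to 30.7) were at a promoter of any gene, within 250 bp of its TSS, against 48.1% of all IDR summits. Of these 7, 5 were at the TSS of another gene: CG1307, agt, lncRNA:CR45559, CG10324 and lncRNA:TS16. Introns held 25 (58.1%, interval 42.1 to 73), against 31.3% of all IDR summits. Windows of the protein-coding genes of 10 kb or more held 45% promoter summits and 41.3% intron summits, so they lay between the Hox windows and the whole list in introns and close to the whole list in promoters. Intergenic DNA held 7 Hox summits (16.3%, against 17.4% of all), other exons held 2, and the 5' UTR and 3' UTR classes held 1 each. Coding exons held 0 of 43, for which a limit of 3 counts allows a share of up to 6.98% and the exact interval reaches 8.22%, against 0.215% of all. Intervals and limits cover counting error only, and neighbouring summits of 1 gene are not independent. To the closest TSS of its own Hox gene, a summit of these windows had a median distance of 9789 bp.

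**Figure D3:**
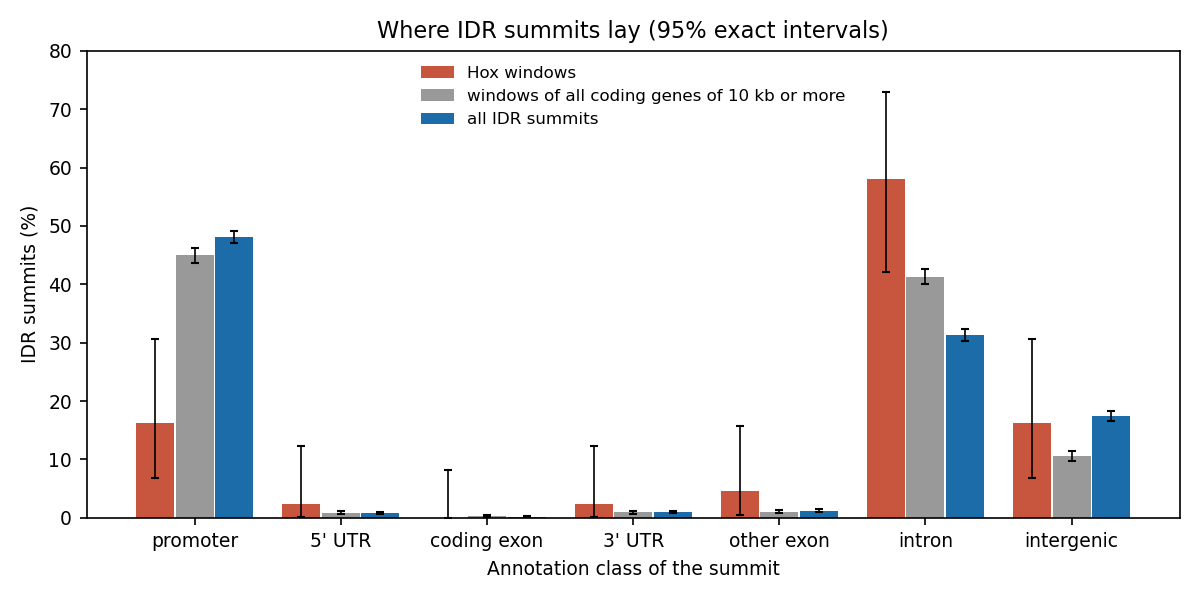
Share of IDR summits in each annotation class, in percent, for the 43 summits of the Hox windows, the 5407 in windows of protein-coding genes of 10 kb or more, and all 7915. Bars start at 0 and the error bars are exact 95% intervals. The Hox bar is lowest of the 3 in promoters (16.3%) and highest in introns (58.1%).

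In strength the Hox summits resembled the rest of the list. Their median rank was 3818 and that of the IDR summits matched in both replicates 3938. Of the 43, 23 (53.5%, interval 37.7 to 68.8) were in the strongest 50% of the IDR list and 3 (6.98%, against 9.99% of all) in the strongest 10%. Their signals ran from 140.9 to 706.3, while the strongest IDR peak reached 5569. Both own-promoter summits, at lab and Ubx, were in the weaker 50%.

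The replicates placed the Hox peaks at nearly the same bases, with ranks that varied. The 43 summits lay in 41 distinct peaks, and a double peak was counted once for each summit. All 43 (interval 91.8 to 100%) overlapped a peak in both replicate lists, as did 98.9% of the whole IDR list, which was itself derived from both replicates. Within the first 7915 peaks of both replicates the count was 36 of 43 (83.7%, against 83.4% of all). The median distance between the IDR summit and the matching summit was 8 bp in replicate 2 and 10 bp in replicate 4, against 13 and 11 bp over the whole list. The median gap between the replicate ranks was 1428 places, against 766 over the whole list. The matching peak had the better rank in replicate 2 at 17 summits and in replicate 4 at 26. A matching peak is the strongest one that overlaps, so both summits of a double peak, as at Abd-B and at Antp, share a match. Across the 43 summits the signals of the replicates had Spearman's rho 0.754, against 0.826 across the whole list, a description across summits that share their libraries and are not independent replicates.

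**Figure D4:**
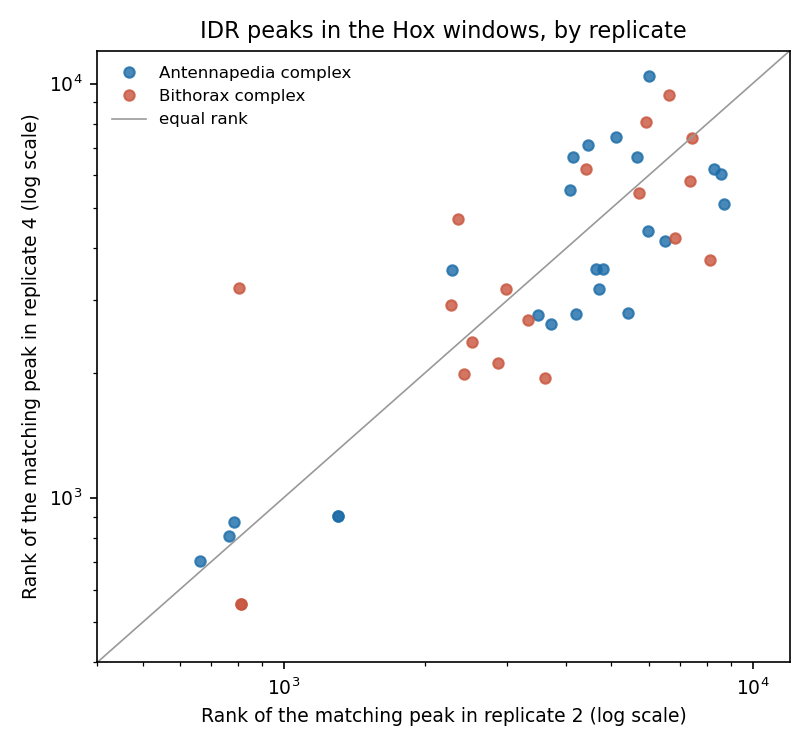
Rank of the matching peak in replicate 2 (x axis) and replicate 4 (y axis) for each IDR summit in the Hox windows, both on log scales, coloured by complex. The grey line marks equal ranks. The 4 strongest Antp summits and the Abd-B summit lie at the lower left near the line, and the abd-A summit at rank 802 in replicate 2 and 3206 in replicate 4 lies far above it.

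Both complexes, taken from the first to the last base of their Hox genes, held more IDR summits per length than the chromosome arms as a whole. The Antennapedia complex held 28 over 338 kb (8.29 per 100 kb) and the Bithorax complex 30 over 316 kb (9.51 per 100 kb), against 5.91 per 100 kb on all arms and 5.73 on 3R. Whole arms also hold DNA far from genes. The median window of all protein-coding genes had 8.497 per 100 kb, close to the rates of the complexes, and that of genes of 10 kb or more 6.28. In the replicates the rates were 32.3 and 33.5 per 100 kb in the Antennapedia complex and 32.3 and 31.1 in the Bithorax complex, against 20.7 and 20.6 on 3R. In the windows themselves, the 5 genes of the Antennapedia complex had 24 summits with a median rank of 3946 and the 3 genes of the Bithorax complex 19 with a median rank of 2803. The complexes were thus similar in rate.

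The gaps between neighbouring peaks within each complex differed in length. The longest stretch without an IDR summit was 63.1 kb, from 6818732 to 6881826, and it held the whole of Scr and of ftz, the pair-rule gene next to it. In the genome 371 of 7909 gaps between neighbouring IDR summits (4.69%) were as long or longer. The median gap was 10.2 kb in the Antennapedia complex, 9.77 kb in the Bithorax complex and 5.69 kb over all arms. The median gap was thus longer in the complexes than over all arms, while their rate per 100 kb was higher (8.29 and 9.51, against 5.91). A long median gap here therefore does not mean fewer summits per length. The stretch held 6 pooled summits, of which the best ranked 8385. The next longest was 30.4 kb between lab and pb, over 8 genes of which 7 belong to the Ccp84A cuticle protein cluster. In the Bithorax complex the longest were 29.7 kb within Ubx and 22.9 kb over the promoter side of abd-A.

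The strongest peak of either complex lay at no Hox gene. It had its summit at 6763072, in an intron of Ama and within lncRNA:CR45593, at rank 137 (signal 1475), with rank 175 in replicate 2 and 113 in replicate 4. Ama encodes a secreted immunoglobulin-domain protein and lies near bcd, the gene of the anterior determinant. The promoter of bcd had the summit of rank 1558, 180 bp from its TSS. In the Bithorax complex, bxd, a noncoding RNA gene upstream of Ubx, had summits of rank 1758, 1928 and 2518 in its introns. Of the 11 other genes inside the complexes that were listed (ftz, zen, zen2, bcd, Ama, bxd, iab-4, msa, mir-10, mir-iab-4 and mir-iab-8), 10 had an IDR summit in the window, all but ftz, and 1, bcd, had one at a TSS, beside 75.6% and 31.7% of all protein-coding genes. Of these genes, bxd, iab-4, msa and the microRNA genes are noncoding, so the shares of protein-coding genes are not a like comparison for them. Several of these windows overlap, and msa is annotated here as lncRNA:iab8.

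Genes that work with the Hox proteins were counted in the same way, beside the shares of all protein-coding genes, 75.6% with a window summit and 31.7% with a promoter summit. With 5 to 7 genes in a list, 1 gene is a large part of its share, and no test was run. Of 5 cofactor genes (exd, hth, tsh, disco and disco-r), 5 had an IDR summit in the window and 1 at a TSS. That gene was hth, which encodes the homeodomain partner that carries Exd into the nucleus, with a promoter summit of rank 5495 and 17 window summits, the best at rank 749. Of 7 other genes of the body axis (cad, eve, ems, oc, btd, en and inv), 7 had a window summit and 3 a promoter summit. The promoter summits were at cad (rank 4169), ems (rank 2557) and btd (rank 3909), a zinc finger gene of the head whose best window summit ranked 200. Of 6 genes that Hox proteins regulate (Dll, salm, dpp, wg, rpr and ct), 6 had a window summit. A promoter summit was present at 4 of them: Dll, the limb gene (rank 1864), wg, the Wnt ligand (rank 3556), rpr, the cell death gene (rank 4239), and ct (rank 6081). The median number of window summits was 2 for the cofactors, 4 for the other genes of the body axis and 4 for the genes that Hox proteins regulate. It was 3 for the other genes inside the complexes, 6 for the Hox genes and 2 for all protein-coding genes. These counts were not divided by window length.

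The sequence under the Hox summits was compared with that under all IDR summits. Motifs were searched on both strands within 50 bp of each summit, and for reference in windows of the same length 500 bp to each side. GCCAT, the core of the site of Pleiohomeotic, which recruits Polycomb group proteins, was in 12 of 43 Hox windows (27.9%, interval 15.3 to 43.7), against 14.1% of all. GAGAG, the core of the GAGA factor site, was in 8 (18.6%, interval 8.39 to 33.4), against 10.5% of all. CAGGTA, the site of Zelda, an activator of the early embryonic genome, was in 3 (6.98%, interval 1.46 to 19.1), against 2.1% of all. In the windows 500 bp away from the Hox summits the shares were 24.4%, 15.1% and 4.65%, all within the intervals at the summits. In the pooled list the Hox shares at the summits and away were 24.7% and 27.2% for GCCAT, 17.3% and 13% for GAGAG, and 5.56% and 2.47% for CAGGTA (9 of 162 windows and 8 of 324). In the whole list 500 bp away the shares were 18.4%, 13.8% and 2.51%. By class, GCCAT was in 14.9% of promoter windows, 12.3% of intron windows and 15.1% of intergenic windows of the whole list. For GAGAG these shares were 10.7%, 11.2% and 8.26%, and for CAGGTA 2.31%, 1.86% and 2.03%.

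The 8-mers in excess at CG17829 summits elsewhere were in few Hox windows, as they were in few windows of introns and intergenic DNA of the whole list. Those with the largest excess at IDR summits outside the Hox windows, over the places 500 bp away, were GGTCACAC (ratio 13.4), TATCGATA (ratio 12) and ATCGATAG (ratio 10.9). GGTCACAC is the core of motif 1 of Drosophila promoters, and TATCGATA is the DRE, the DNA replication-related element. At least 1 of the leading 10 8-mers, several of which overlap each other, was at 788 of all 7915 summits (9.96%) and at 1 of 43 Hox summits (2.33%, interval 0.0589 to 12.3). Among all IDR summits these 8-mers were in 18.6% of promoter windows, 1.57% of intron windows and 2.54% of intergenic windows, and most Hox summits lay in the latter classes. The 1 Hox window was that upstream of Dfd, whose printed sequence holds TGGTCACA and GGTCACAC on the reverse strand, overlapping by 7 letters.

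Of the other letters searched, TATCGATA was in 0 of 43 Hox windows, against 3.41% of all (a limit of 3 counts allows up to 6.98% and the exact interval reaches 8.22%). CGATA, its last letters and the core of the site of the insulator protein BEAF-32, was in 4 (9.3%, against 19.7% of all). In the whole list CGATA was in 29.7% of promoter windows, 9.77% of intron windows and 11.4% of intergenic windows. For TATCGATA these shares were 6.72%, 0.202% and 0.652%. Most Hox summits lay in introns or intergenic DNA. GTCCG, part of the binding site known for human HINFP, was in 2 (4.65%) and in 12.8% of the windows 500 bp away. In the whole list it was likewise in fewer windows at the summit (4.08%) than away from it (9.39%). TGGCGC, part of the CTCF site, was in 2 (4.65%, against 4.3% of all), in the flanks of abd-A and Abd-B. TAATTA, a homeodomain site, was in 1 (2.33%), at Ubx, against 10.2% of all and 9.3% of the windows 500 bp from Hox summits. In the pooled list its Hox shares were 6.79% at the summits and 7.72% away. In the whole list TAATTA was in 9.24% of promoter windows, 11.2% of intron windows and 11.5% of intergenic windows. None of the 9 motifs was in 19 of the 43 windows (44.2%, interval 29.1 to 60.1), against 48.7% of all. The base composition was 36.4% G and C at Hox summits and 41% away from them, against 34.7% and 44.1% in the whole list, and base composition changes the share of any motif.

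**Figure D5:**
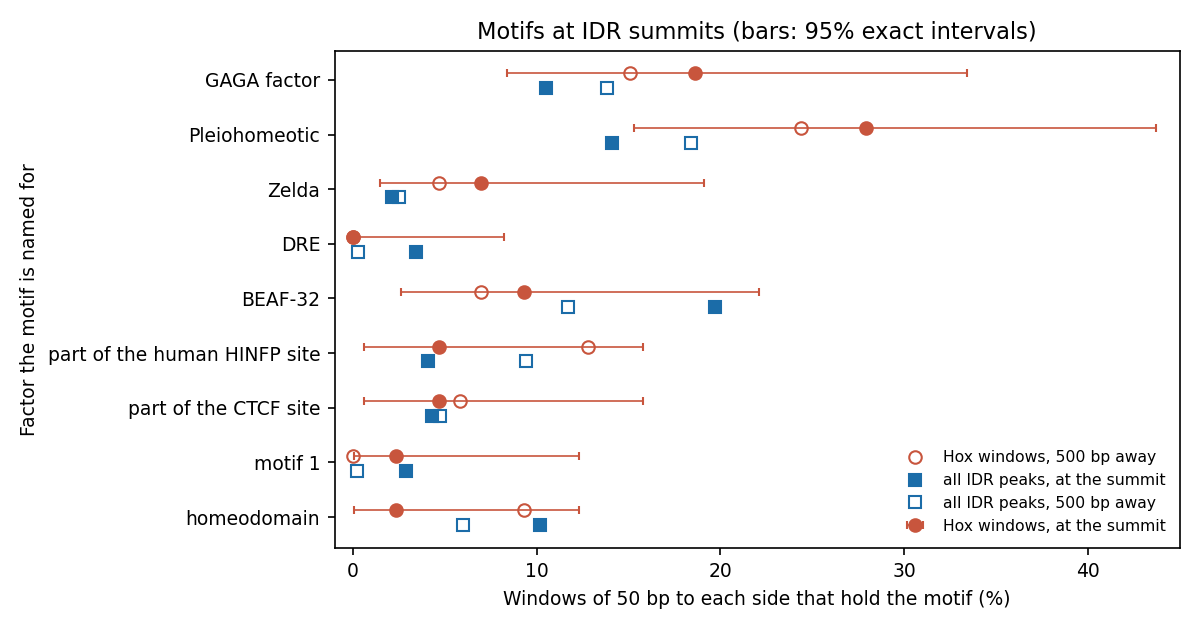
Share of 101-bp windows, in percent, that hold each of the 9 motifs, at summits (filled) and 500 bp away (open), for the Hox windows (circles, with exact 95% intervals at summits) and for all IDR peaks (squares). For the GAGA factor and Pleiohomeotic motifs the filled circle lies right of the filled square but near the open circle. For BEAF-32, DRE and homeodomain motifs the filled circle lies left of the filled square. In the whole list the BEAF-32 and DRE motifs were rarer in intron and intergenic windows, where most Hox summits lay, than in promoter windows. The homeodomain motif was not.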

How the data were processed

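The authors deposited 4 peak lists (replicate 2, replicate 4, pooled and IDR) made from read alignments and 1 control alignment in dm6, per the deposited provenance notes. For the aligner and the peak caller, nothing is given in the sources used here. The deposited signal value has no stated scale, so peaks were ranked by it within each list alone. The −log10 q values that the authors deposited were not used. Deposited starts, ends and summit offsets are positions, the other unit. Depth is unknown, and no list from untagged embryos was analysed here. Lists of fixed length were ended by the authors' processing.

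Genes came from Ensembl 115 for BDGP6.54 (18164 genes without transposons), with dm6 coordinates. Positions count from 1. Scripts used Python 3.11.15, pandas 2.3.3, numpy 2.4.6 and scipy 1.17.1. A summit in several annotation classes went to the promoter, then to the 5' UTR, then to a coding exon, the 3' UTR, any other exon and an intron, and otherwise to intergenic DNA. The 8-mers had to be in at least 100 windows and were ranked by windows at summits over the mean of both places 500 bp away, after adding 1 to each. Counting was checked on simulated data.

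No tests were run, since there is 1 group. The members, context lists, motifs and comparisons were chosen with earlier results of these data known. The genes named are the 8 members, the context lists, and hosts or neighbours of peaks in the complexes. Alternatives changed the window, peak threshold, TSS distance, annotation, class order, overlap, motif window and replicates. The replicates shared no summit with equal signal.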

Additional observations from a re-analysis of the deposited data

How the results depend on the processing

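The 43 IDR summits became 25 in gene bodies alone, 23 in the strongest 50% of the IDR list and 162 in the pooled list, and were 35 and 60 with windows of 5 and 20 kb. The rates per 100 kb became 4.44 and 30.79 in the Antennapedia complex and 4.753 and 32 in the Bithorax complex, in the strongest 50% and the pooled list. The number of Hox genes with a promoter summit became 0 and 5 there. Lists of different length are set by construction. The overlap with both replicates fell from 100% to 88.37% when 50% of both peaks had to overlap and to 83.72% in the first 7915 peaks of each replicate. Leaving out a replicate, with the first 7915 peaks of the other in place of the IDR list, gave 45 to 46 summits, 2 to 3 promoter genes and rates of 8.585 and of 8.872 to 10.77. Scr had 4 summits without replicate 4 and 2 without replicate 2, against 1, and was then no longer alone with the fewest. Among single genes, every count fell with the gene body alone, to 0 at Dfd and Scr, 1 at abd-A and 3 at lab. With 5 kb the largest fall was at abd-A, from 6 to 2. With 20 kb every count rose, most at Abd-B, from 7 to 11, and at Ubx, from 6 to 10. RefSeq in place of Ensembl left 8 genes with a window summit and 2 with a promoter summit. The promoter share was 9.302% within 100 bp, 27.91% within 1000 bp and 11.63% with exons and introns counted first. Within 25 bp of the summit the motif shares fell to 2.326% for CGATA and to 0 for GTCCG, GGTCACAC and TAATTA, and within 100 bp they were 23.26%, 11.63%, 4.651% and 11.63%. No paired analysis was possible because there is 1 group. The depth is unknown, so what it limits cannot be given.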
